A study of Mus musculus with 30 samples.

Results

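The genes described here are 140 genes whose RNA in mouse embryonic stem cells (ESCs) differed by less than 0.4 on the log2 scale from its starting level after 3 h in Enhanced Metabolic Media (EMM) and was at least 0.9 lower by 24 h, though most of them were already slightly lower at 3 h. They were chosen by their measured values in the time-course libraries. Counts were divided by the library total to give counts per 1000000 (CPM), the 3 libraries of a group were averaged, and levels were taken as log2(mean CPM + 0.5). A gene was kept when its highest group mean reached 1 CPM, its 24 h level lay at least 0.9 below that at 0 h, and its 3 h level lay within 0.4 of that at 0 h. Of 52630 genes listed, 13646 reached 1 CPM, and the 140 genes make up 1.03% of those. A level at least 0.9 lower at 24 h was seen in 522 genes, of which 379 were already lower by 0.4 or more at 3 h and 2 were higher by that amount. Of the 141 genes that remained, Lef1 was set aside by name (Cdx2, Arrdc4 and Txnip would have been, but did not meet the rule). The members are called the late-falling genes below, and all but 3 of them are protein coding.

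Cells in culture draw most of their energy from glucose by glycolysis, from oxidation of pyruvate and other fuels in mitochondria, or from both. Galactose enters glycolysis slowly, so a medium with galactose in place of glucose and pyruvate makes cells lean on oxidative phosphorylation. Glycolysis also feeds biosynthesis: the serine pathway branches from 3-phosphoglycerate, and Phgdh and Psat1 encode its opening enzymes. ESCs kept in serum with the cytokine LIF are a mixed population, in which RNA of germ-cell, lineage and signalling genes is present at low level beside the pluripotency network. In 2i/LIF, inhibitors of the kinases MEK and GSK3 hold the cells in a more uniform naive state.

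All libraries came from 1 established mouse ESC line, E14tg2a, grown on gelatin-coated dishes. In the time course, cells in Serum/LIF (0 h) were compared with cells moved to EMM, the same serum and LIF medium made without glucose and pyruvate and with galactose, for 3, 9 and 24 h. The labels give the Serum/LIF libraries a time of 0 h, while the treatment notes speak of 24 h in Serum/LIF, so whether this baseline was taken at the start or alongside the 24 h cells is not settled. In a separate experiment, cultures were carried for 10 passages (P10) or 20 passages (P20) in 1 of 3 media, Serum/LIF, EMM or 2i/LIF. Each of the 10 groups had 3 libraries, which the study's methods describe as independent experiments. Library totals ran from 24074132 to 35301962 counts in the time course and from 6944918 to 27912959 in the passage experiment. The labels name a different RNA extraction kit, library kit and counting tool for each experiment, so levels are compared within each. As the RNA is from whole cultures, fewer cells that express a gene and less of its RNA in each cell cannot be told apart.

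Since the 0 h, 3 h and 24 h libraries chose the genes, their time course is a description. The median member lay 0.23 below 0 h at 3 h, 0.73 below at 9 h and 1.07 below at 24 h on the log2 scale. Over all 13646 expressed genes the medians were -0.08, -0.03 and -0.01. The 9 h libraries took no part in the choice, though they are read against the same 0 h libraries: 124 of the 140 genes were lower by 0.4 or more at 9 h and 32 by 0.9 or more. By fitted log2 fold change (edgeR), 139 of the 140 were below 0 h at 9 h, against 50.6% of all genes tested. The median gene had covered 67.4% of its 24 h difference by 9 h, and 106 genes had covered more than 50% of it. The nearness to 0 h at 3 h was fixed by the rule, and by 9 h most of the genes were already lower. At 9 h, 15 genes lay within 0.4 of 0 h, and 1, the membrane protease gene Tmprss13, was higher by 0.48. The 24 h level was not the lowest in every gene, since 8 genes were lower at 9 h than at 24 h.

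**Figure D1:**
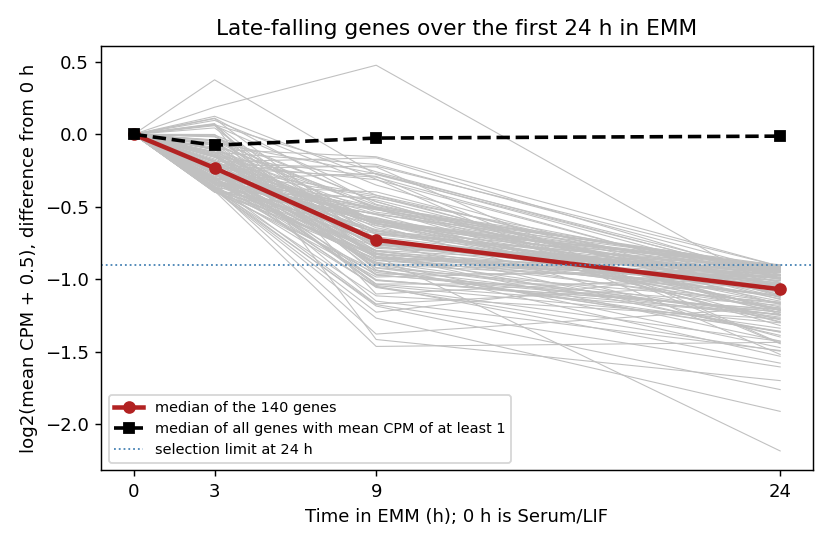
Difference from 0 h in log2(mean CPM + 0.5) (vertical axis) against hours in EMM (horizontal axis), with a grey line for each of the 140 genes. The red median reaches -0.73 at 9 h and -1.07 at 24 h, while the dashed median of all expressed genes stays between -0.08 and 0, and the dotted line marks the 24 h selection limit.

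The single libraries showed the same order. All 3 libraries at 24 h lay below all 3 at 0 h in 140 of the 140 genes, which the rule nearly fixes, against 32.8% of expressed genes. At 9 h this held for 130 genes, against a background of 32.9%. In 100 genes all 24 h libraries also lay below all 9 h libraries, against 18.4%, but the rule asked for low 24 h values, so nothing is read from this difference. At 3 h the libraries already stood apart from those at 0 h, in either direction, in 75 genes, against 61.9% of expressed genes, a comparison limited by the rule, which capped the 3 h difference in the members alone. Of the members, 127 had a mean below that at 0 h. By fitted log2 fold change (edgeR), 118 were below 0 h at 3 h, against 51.7% of all genes tested. Added over the 140 genes, the CPM ran from 3656 to 3736 in the 0 h libraries, 3177 to 3205 at 3 h, 2174 to 2252 at 9 h and 1686 to 1710 at 24 h, so no 2 time points overlapped.

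The selection limits fell among genes with nearly the same values. Just inside the 24 h limit lay Cars at -0.90, Fubp1 at -0.9049 and Rfc4 at -0.905, and just outside lay Slc5a4b at -0.8987, Fcgbp at -0.8972 and Gstm3 at -0.8963. Just inside the 3 h limit lay Dusp2 at -0.3994, Fam84a at -0.3984 and Ggt7 at -0.3974. Just outside it lay Cdkn1c at -0.4005, Dnmt3b at -0.4026 and Mmp9 at -0.4031, the last a matrix protease and Dnmt3b a de novo DNA methyltransferase. Many members were low: the mean at 0 h had a median of 6.10 CPM over the 140 genes, and 67 genes were under 5 CPM. Exons of 28 members overlap a gene on the other strand, among them Cars, Ccnd1, Pcsk1n, Psmb9, Tdrkh, Tuba3a and Pax8, and those of 8 overlap one on the same strand, so their counts may include reads of those neighbours. With a pseudocount of 1 in place of 0.5 the rule took 99 genes, 89 of them among the 140.

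The deepest 24 h difference was that of Crabp1, which encodes a cytosolic protein that binds retinoic acid. Its level was 8.68, 10.1 and 9.12 CPM at 0 h, 9.68, 7.53 and 7.82 CPM at 3 h, 4.92, 5.15 and 4.84 CPM at 9 h and 1.85, 1.70 and 1.41 CPM at 24 h. Dppa3, also called Stella, protects maternal DNA methylation marks in the egg and marks naive ESCs and germ cells. It read 17.2, 18.2 and 17.4 CPM at 0 h, 13.4, 12.8 and 13.9 CPM at 3 h, 6.43, 6.90 and 7.71 CPM at 9 h and 4.29, 4.58 and 4.06 CPM at 24 h. The log2 differences at 24 h were -2.19 for Crabp1 and -1.91 for Dppa3. Next came the peptidylarginine deiminase gene Padi3 (-1.76), the kidney and thyroid transcription factor gene Pax8 (-1.70), Psat1 (-1.61), the organic cation exporter gene Slc47a1 (-1.58), Lhpp (-1.53), the secreted matrix protein gene Spon1 (-1.52), the cytokine gene Ltb (-1.50) and Tuba3a (-1.49). Pax8 had 2.53, 2.56 and 1.78 CPM at 0 h, so that its difference rests on few reads.

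The passage libraries took no part in the choice of the genes, and 139 of the 140 passed the filter on low counts there (R3hdml did not). After 10 passages in EMM most late-falling genes were lower than in Serum/LIF. By edgeR's quasi-likelihood test (Benjamini-Hochberg adjusted p under 0.01 over all 16054 genes and a log2 fold change beyond 1), 89 members were lower, where 10.5% of all genes were, and 2 were higher, against 6.66%, or 4 without Serum/LIF library 3 of P10. The median log2 fold change of the 139 genes was -1.58, with quartiles of -2.49 and -0.77, and that of all genes was 0.01. After 20 passages 44 members were lower, against 6.31% of genes, and 1 was higher, against 3.46%, with a median of -0.76. All 3 EMM libraries lay below all 3 Serum/LIF libraries in 115 members at P10, against a background of 29.4%, and in 97 at P20, against 29.5%. The CPM summed over the members ran from 3438 to 3563 in Serum/LIF and from 1408 to 1413 in EMM at P10, and from 3081 to 3166 and 1791 to 1865 at P20.

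Taken by gene, 36 members were lower in EMM at both passages, where 3.58% of all genes were. They are 40.4% of the members lower at P10 and 81.8% of those lower at P20, and over all genes these shares were 34.0% and 56.8%. Another 53 members passed at P10 alone, against 6.95% of all genes, and for 24 of these, against 3.26%, the change in the EMM effect between passages was itself past the test. Those 24 are 45.3% of the 53, and over all genes lower at P10 alone the share was 47.0%. A further 8 members passed at P20 alone, against 2.73%, and 42 at neither, against 86.7%. Across the 139 genes the log2 fold changes at P10 and P20 had a Pearson correlation of 0.34, and across all 16054 genes one of 0.54, as a description over genes that share libraries. The members are described next by their known roles, which were assigned by hand after their values had been seen, and the count of each role reads against the 10.5% of all genes lower in EMM at P10 and the 6.31% at P20.

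**Figure D2:**
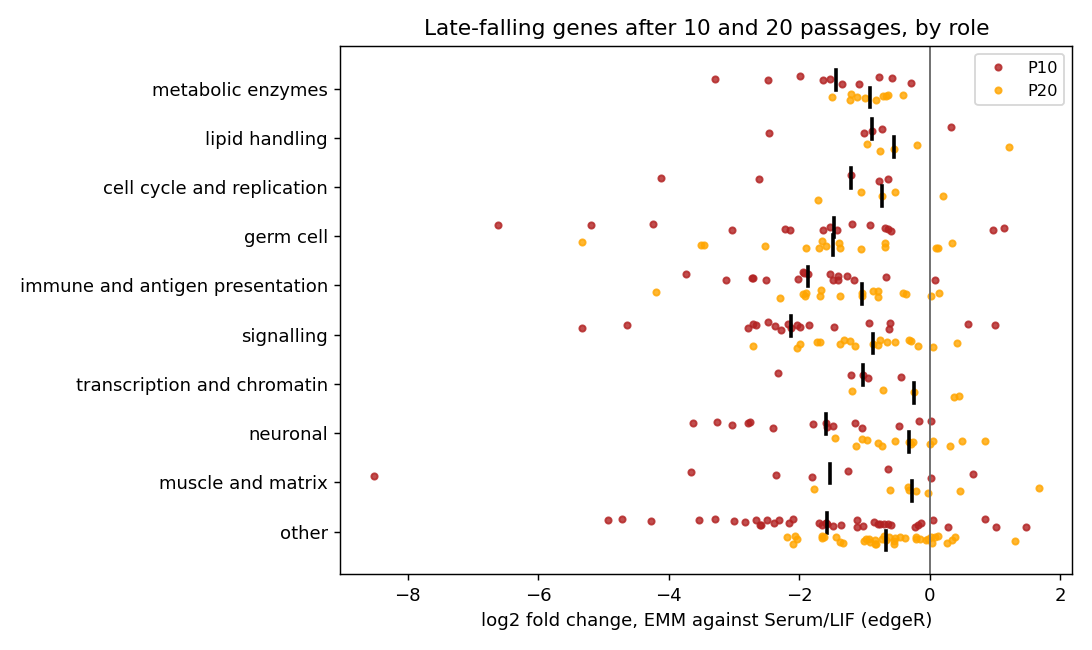
Log2 fold change of EMM against Serum/LIF (horizontal axis, edgeR) for each member tested at P10 (red) and P20 (orange), grouped by role, with a black bar at each median. The neuronal median moves from -1.60 at P10 to -0.31 at P20, while the germ cell median is -1.47 and -1.49.

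The metabolic enzymes number 10 among the members, and 7 of them were lower in EMM at P10 and 4 at P20, with medians of -1.44 and -0.91. Psat1, phosphoserine aminotransferase, makes phosphoserine, the precursor of serine. In the time course it read 492, 505 and 485 CPM at 0 h, 386, 374 and 375 CPM at 3 h, 208, 227 and 221 CPM at 9 h and 168, 159 and 159 CPM at 24 h. At P10 it read 524, 557 and 506 CPM in Serum/LIF, 97.4, 94.8 and 93.4 CPM in EMM and 201, 179.7 and 178 CPM in 2i/LIF. The 3 media did not overlap, with EMM lowest. At P20 the values were 441, 437 and 429 CPM in Serum/LIF, 184, 185 and 191 CPM in EMM and 456, 509.7 and 441 CPM in 2i/LIF. Against Serum/LIF the log2 fold change was -2.47 ± 0.07, adjusted p = 1.6e-15 at P10 and -1.23 ± 0.07, adjusted p = 7.1e-11 at P20, and 2i/LIF, lower at P10 (-1.50 ± 0.07, adjusted p = 3.7e-13), was not called at P20 (0.11 ± 0.07, adjusted p = 0.2).

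Phgdh, phosphoglycerate dehydrogenase, catalyses the step before Psat1. It read 296, 302 and 279 CPM in Serum/LIF and 92.2, 110.1 and 144 CPM in EMM at P10, and 202, 192 and 194 CPM and 113, 113 and 106 CPM at P20. Phgdh fell at P10 (-1.35 ± 0.23, adjusted p = 0.00019). Its P20 difference (-0.82 ± 0.22, adjusted p = 0.0093) was short of the fold limit, and its adjusted p rose above 0.01 whichever P20 EMM or Serum/LIF library was left out. The cysteinyl-tRNA synthetase gene Cars missed the fold limit at both passages, with -0.78 ± 0.06, adjusted p = 3.4e-09 and -0.67 ± 0.06, adjusted p = 8.3e-08. The ribose-phosphate enzyme gene Prps2 missed both the fold limit and the limit on adjusted p at both passages, with -0.58 ± 0.23, adjusted p = 0.044 and -0.71 ± 0.22, adjusted p = 0.019. Ppa1, which hydrolyses the pyrophosphate released by biosynthesis, fell at P10 (-1.09 ± 0.09, adjusted p = 6.6e-09).

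The promoters of both serine genes are shown because these were the only late-falling members of a list of integrated stress response and serine genes, and because a CCAAT box, a common binding site of the factor NF-Y, occurs in 1 of the 2 windows of Psat1 and in that of Phgdh. The other Psat1 window, at chr19:15924573-15924872, holds no CCAAT on either strand. The windows shown are RefSeq sequences on GRCm38.p6, from 250 bases before to 50 after an annotated start, with CCAAT in capitals wherever either strand holds it.
Psat1: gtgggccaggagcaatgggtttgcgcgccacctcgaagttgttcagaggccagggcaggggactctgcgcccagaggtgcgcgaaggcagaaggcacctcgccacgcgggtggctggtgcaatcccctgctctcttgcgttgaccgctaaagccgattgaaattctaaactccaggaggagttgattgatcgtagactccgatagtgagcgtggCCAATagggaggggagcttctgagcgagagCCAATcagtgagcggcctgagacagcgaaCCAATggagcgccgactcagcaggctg
Phgdh: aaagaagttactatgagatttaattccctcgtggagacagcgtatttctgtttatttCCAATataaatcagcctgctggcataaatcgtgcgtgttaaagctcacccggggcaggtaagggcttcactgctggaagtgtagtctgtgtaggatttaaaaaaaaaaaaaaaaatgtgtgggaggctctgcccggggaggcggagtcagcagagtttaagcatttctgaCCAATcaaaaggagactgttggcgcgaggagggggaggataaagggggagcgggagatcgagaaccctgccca
The Psat1 window is chr19:15925010-15925309 (minus strand) and the Phgdh window is chr3:98339920-98340219 (minus strand). The sites lay 36 and 6 bases before and 24 after the start in Psat1, and 193 and 23 before it in Phgdh. CCAAT was as frequent in the late-falling genes as elsewhere, with 37.5% of their 136 promoters, 37.4% of all 32851 and 38.0% of those of expressed genes holding it on either strand. TGATGNAA, a composite site for ATF4 and C/EBP factors, was in 3.68% of member promoters, 3.97% of all and 2.21% of those of expressed genes. Promoters were found for 111 of the 140 genes.

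The list holds 28 genes of the integrated stress response and serine synthesis. By adjusted p alone, 24 of its genes were lower in EMM at 24 h and 1 higher, 13 and 5 at P10, and 15 and 3 at P20. The rule nearly fixed the 24 h calls of the list's 2 members, Psat1 and Phgdh, and capped their 3 h differences. The median log2 fold change of the list was -0.62, -0.44 and -0.62. Over all genes tested, 22.5% were lower and 22.1% higher by that criterion at 24 h, 18.7% and 18.7% at P10, and 12.8% and 13.7% at P20. Scaled by library totals alone these became 22.5% and 14.5% at P10, and 16.9% and 9.96% at P20. By 3 h, 16 of the list's 28 genes were already lower, against 18.6% of all genes. Of its genes outside the late-falling set, Psph, which completes serine synthesis, had log2 fold changes of -1.38 at 24 h, -0.97 at P10 and -1.39 at P20, and the glutathione-degrading enzyme gene Chac1 had -2.48, -2.45 and -1.62.

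Of 5 members that handle lipids, 2 were lower at P10 and none at P20, where Slc27a2, a very-long-chain acyl-CoA synthetase, was higher. Slc27a2 read 20.9, 19.7 and 17.6 CPM in Serum/LIF and 44.5, 49.3 and 41.1 CPM in EMM at P20 (1.21 ± 0.19, adjusted p = 7.5e-05), and its P10 difference did not pass (0.33 ± 0.19, adjusted p = 0.17). The phospholipase gene Pla2g6 was short of the fold limit at both passages, with -0.89 ± 0.11, adjusted p = 1.1e-06 and -0.55 ± 0.11, adjusted p = 0.00032.

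Among 5 members of the cell cycle and DNA replication, 3 were lower at P10 and 2 at P20. Ccnd1, cyclin D1, drives the passage from G1 into S phase and is a target of Wnt signalling in many cells. In the time course it read 161, 150.4 and 154 CPM at 0 h and 74.1, 81.2 and 80.5 CPM at 24 h. At P10 it read 167, 138 and 139 CPM in Serum/LIF, 8.14, 8.29 and 9.40 CPM in EMM and 252, 276 and 290.2 CPM in 2i/LIF. At P20 it read 139.9, 131 and 134 CPM in Serum/LIF, 45.0, 40.5 and 38.3 CPM in EMM and 269, 262 and 296 CPM in 2i/LIF. EMM was lowest and 2i/LIF highest at both passages, with no overlap. EMM against Serum/LIF gave -4.12 ± 0.11, adjusted p = 3.8e-16 at P10 and -1.71 ± 0.09, adjusted p = 2.8e-11 at P20. Pclaf, the PCNA clamp-associated factor, fell at P10 (-1.20 ± 0.08, adjusted p = 3e-10) and read -0.54 ± 0.08, adjusted p = 2.2e-05 at P20, while the clamp-loader subunit gene Rfc4 was short of the fold limit at both (-0.64 ± 0.09, adjusted p = 8.3e-06 and -0.73 ± 0.09, adjusted p = 2.7e-06). A list of 33 cell cycle and replication genes holds 1 member, Ccnd1, whose 24 h call was nearly fixed by the rule. By adjusted p alone, 21 of the list were lower and 5 higher at 24 h, against 22.5% and 22.1% of all genes. At P10 7 were lower and 8 higher, near the 18.7% of all genes each way. At P20 11 were lower, against 12.8%, and 4 higher, near the 13.7% of all genes.

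Germ-cell genes number 16. At P10 10 of them were lower and 1 higher in EMM, and at P20 10 were lower and none higher. Dppa3 had the most negative P10 value of the 16. It read 41.3, 40.8 and 51.4 CPM in Serum/LIF, 0.360, 0.499 and 0.587 CPM in EMM and 35.8, 35.5 and 82.1 CPM in 2i/LIF at P10, and 29.9, 24.0 and 24.5 CPM, 2.38, 2.15 and 2.60 CPM and 23.6, 17.3 and 59.3 CPM at P20. Every Serum/LIF and 2i/LIF library lay above every EMM library, and 2i/LIF against Serum/LIF did not pass (0.22 ± 0.39, adjusted p = 0.65 at P10). The EMM difference was -6.62 ± 0.71, adjusted p = 4.5e-06 at P10 and -3.46 ± 0.50, adjusted p = 0.00012 at P20. Dppa3 was the 1 late-falling gene in a list of 21 naive pluripotency genes, of which 1 was lower and 15 higher at P10 in EMM by adjusted p alone (18.7% of all genes each way), and 8 lower and 2 higher at P20 (12.8% and 13.7%). Dppa3 thus went the other way from most of that list at P10.

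Another pair of testis genes was low in EMM at both passages: Usp26, an X-linked deubiquitinase, gave -5.19 ± 0.56, adjusted p = 5.5e-07 at P10 and -5.33 ± 0.48, adjusted p = 2e-07 at P20, and Ldhc, the lactate dehydrogenase of sperm, gave -4.24 ± 0.50, adjusted p = 6.8e-07 and -3.51 ± 0.43, adjusted p = 2.1e-06. Ldhc read 3.46, 4.01 and 2.08 CPM in Serum/LIF and 0.258, 0.0999 and 0 CPM in EMM at P10. The synaptonemal complex gene Syce1 also fell at both passages, with -1.52 ± 0.21, adjusted p = 3.8e-06 and -1.65 ± 0.18, adjusted p = 7.4e-07.

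The piRNA pathway silences transposons in the male germ line, and 3 of its factors are late-falling genes. Mov10l1, an RNA helicase of piRNA biogenesis, fell at both passages, with -1.19 ± 0.21, adjusted p = 0.0001 at P10 and -1.38 ± 0.20, adjusted p = 1.8e-05 at P20. Tdrkh, a Tudor protein that tethers PIWI proteins to mitochondria, gave -3.04 ± 0.26, adjusted p = 8.3e-09 and -1.39 ± 0.22, adjusted p = 6e-05. Tdrd1, a Tudor scaffold protein, behaved differently with passage: it read 5.81, 5.28 and 6.45 CPM in Serum/LIF and 1.24, 1.20 and 1.32 CPM in EMM at P10, and 2.29, 2.47 and 2.25 CPM and 2.80, 3.48 and 2.56 CPM at P20. The groups were apart at P10 (-2.22 ± 0.29, adjusted p = 2.7e-06) and not called at P20 (0.34 ± 0.26, adjusted p = 0.34), and the Serum/LIF level was itself lower at P20. Stk31, a testis kinase that binds the Tudor network, gave 0.97 ± 0.21, adjusted p = 0.00057 at P10 and -0.68 ± 0.20, adjusted p = 0.012 at P20. Neither was past the fold limit, and the P20 value also missed the limit on adjusted p. The change between passages did pass (-1.65 ± 0.29, adjusted p = 0.00027). In a list of germline genes silenced by DNA methylation, 21 of them tested and 5 of them members (Stk31, Mov10l1, Tdrkh, Tdrd1 and Syce1), 10 were lower and 1 higher at P10 by adjusted p alone, against 18.7% each way, and 8 and 1 at P20, against 12.8% and 13.7%, with medians of -0.92 and -0.86.

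Promoters of 3 of these genes are shown because they hold CACGTG (in 2 of the 3 windows of Tdrd1, the 1 of Mov10l1 and both of Stk31, with the windows that hold it overlapping in each gene), the E-box that Myc, Max and MondoA factors bind and that includes a CpG, and because germline promoters are a known class kept silent by DNA methylation elsewhere. The E-box is in capitals.
Tdrd1: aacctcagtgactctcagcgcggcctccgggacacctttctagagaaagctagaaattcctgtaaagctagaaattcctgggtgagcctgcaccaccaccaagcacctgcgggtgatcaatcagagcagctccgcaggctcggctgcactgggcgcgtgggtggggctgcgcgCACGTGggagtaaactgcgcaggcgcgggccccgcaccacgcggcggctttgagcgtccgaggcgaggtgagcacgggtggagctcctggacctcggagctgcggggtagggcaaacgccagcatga
Mov10l1: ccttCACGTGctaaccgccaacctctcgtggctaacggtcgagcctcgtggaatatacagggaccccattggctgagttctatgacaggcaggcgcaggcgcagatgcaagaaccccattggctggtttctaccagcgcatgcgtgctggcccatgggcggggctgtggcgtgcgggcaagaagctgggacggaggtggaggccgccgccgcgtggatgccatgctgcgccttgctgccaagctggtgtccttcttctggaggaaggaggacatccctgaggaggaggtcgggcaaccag
Stk31: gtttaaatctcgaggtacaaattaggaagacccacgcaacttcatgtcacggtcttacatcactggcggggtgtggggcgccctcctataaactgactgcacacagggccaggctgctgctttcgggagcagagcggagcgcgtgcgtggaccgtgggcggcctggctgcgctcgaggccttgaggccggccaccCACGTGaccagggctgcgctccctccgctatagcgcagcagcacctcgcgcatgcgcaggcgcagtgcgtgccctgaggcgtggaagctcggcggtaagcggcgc
The Tdrd1 window is chr19:56826025-56826324 (plus strand), the Mov10l1 window is chr15:88982744-88983043 (plus strand) and the Stk31 window is chr6:49395289-49395588 (plus strand). The site lay 77 bases before the start in Tdrd1, 246 before it in Mov10l1 and 55 before it in Stk31. Over all members, 11.03% of 136 promoters held CACGTG, against 7.15% of all promoters and 10.1% of promoters of expressed genes. The other motifs searched, on both strands, were the GC box GGGCGG (59.6% of member promoters, 35.7% of all and 63.3% of those of expressed genes), the TATA box TATAAA (12.5%, 13.6% and 6.95%), the TCF/LEF core CTTTGAT (0.735%, 3.73% and 2.38%) and the cyclic AMP response core TGACGT (8.82%, 7.51% and 11.2%). In the same order, the AP1 site TGANTCA was in 6.62%, 7.81% and 4.76%, the TEAD site GGAATG in 14.7%, 14.7% and 12.3%, and the E2F core GCGGGA in 37.5%, 19.98% and 35.7%. The late-falling promoters were also poorer in CpG than those of expressed genes, with a median observed over expected CpG of 0.575 against 0.750, and 0.384 over all promoters. The expressed genes were not matched to the members in RNA level, and some genes have more than 1 window. The part of RNA level in this difference was not tested. The ratio by role was 0.253 for the muscle and matrix genes, 0.376 for the immune genes, 0.65 for the germ cell genes and 0.78 for the cell cycle genes, from 4 to 20 promoters a role.

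Immune and antigen presentation genes number 17, of which 13 were lower at P10 and 9 at P20. H2-K1 encodes a classical class I histocompatibility chain. It read 60.4, 69.2 and 59.977 CPM in Serum/LIF and 10.9, 12.5 and 9.84 CPM in EMM at P10, and 44.4, 41.1 and 45.7 CPM and 18.9, 20.9 and 23.7 CPM at P20. The EMM libraries lay below the Serum/LIF libraries at both passages, with -2.51 ± 0.17, adjusted p = 3.6e-10 at P10 and -1.04 ± 0.15, adjusted p = 2.5e-05 at P20. Psmb9 and Psmb10 encode catalytic subunits of the immunoproteasome, which makes peptides for class I presentation. Psmb9 fell by 3.74 on the log2 scale at P10 and by 1.90 at P20, and Psmb10 by 1.41 and 1.05, with adjusted p of 3.3e-06, 0.0013, 0.00055 and 0.0059 in that order. At P20, Psmb10 was no longer called whichever EMM or Serum/LIF library was left out (-1.13 to -0.94), and Psmb9 was not called without Serum/LIF library 1 (-1.55).

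In a list of interferon and class I genes, of which 21 were tested and these 3 are members, 14 were lower and 1 higher at P10 by adjusted p alone, against 18.7% each way, and 12 and 1 at P20, against 12.8% and 13.7%. Tap2, a subunit of the peptide transporter and no member, gave -1.99 at 24 h, -3.99 at P10 and -2.57 at P20. B2m, the invariant light chain of class I molecules, went the other way with 1.68, 0.87 and 0.72. Slc11a1, a metal transporter of phagocytes, had 5 reads over the 3 EMM libraries and 57 over the Serum/LIF libraries at P10, a ratio of Serum/LIF to EMM of 9.10 (95% interval 3.68 to 29.1, counting error only). Cd74, the class II invariant chain, chosen for mention after its values were seen, did not pass at P10 (0.08 ± 0.34, adjusted p = 0.95) and fell at P20 (-1.95 ± 0.36, adjusted p = 0.00022).

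**Figure D3:**
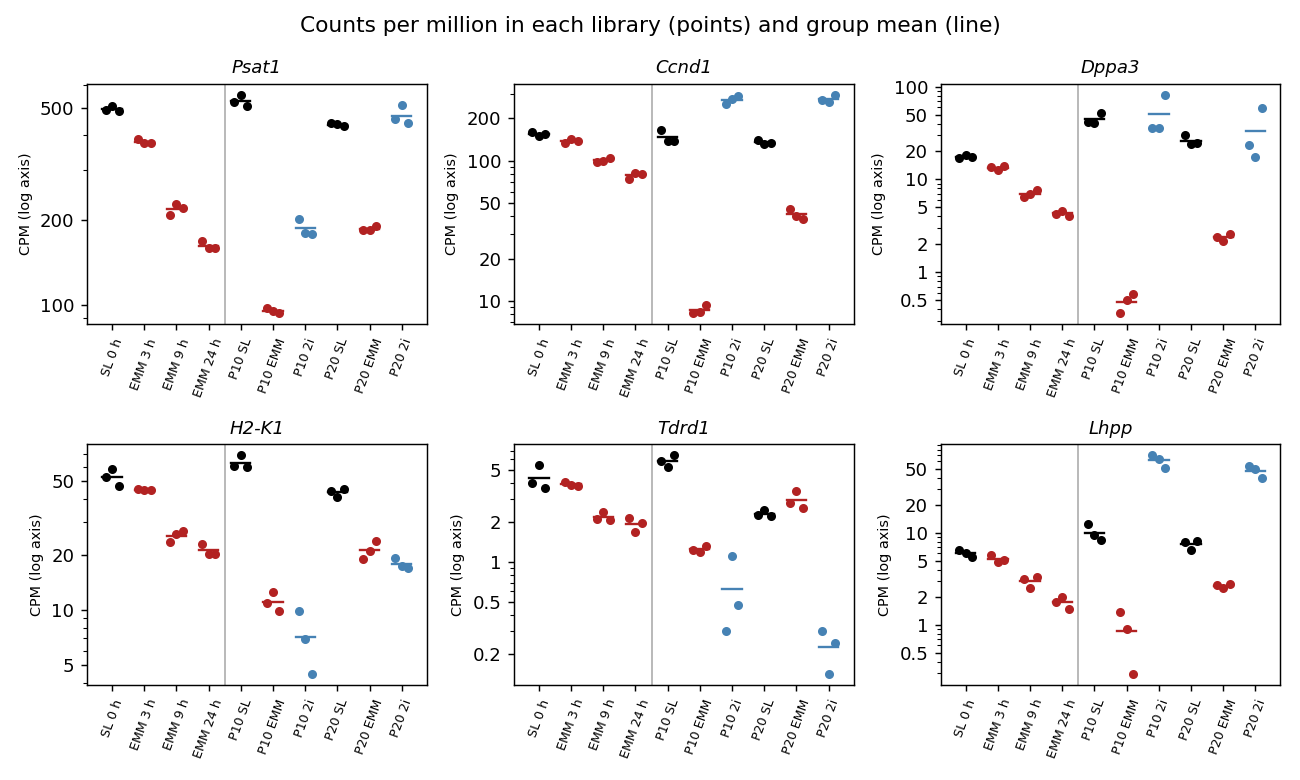
CPM on a log axis in each library (points) with the group mean (line) for 6 late-falling genes, with the time course left of the vertical line and P10 and P20 right of it. SL stands for Serum/LIF and 2i for 2i/LIF, and EMM lies below Serum/LIF at both passages for Psat1, Ccnd1, Dppa3, H2-K1 and Lhpp, while for Tdrd1 the groups are apart at P10 and close at P20.

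Secreted signals, receptors and regulators of signalling make up 19 members, of which 14 were lower at P10 and 8 at P20. Crabp1 read 16.1, 13.2 and 14.976 CPM in Serum/LIF, 1.96, 2.00 and 2.64 CPM in EMM and 3.02, 1.95 and 1.15 CPM in 2i/LIF at P10. It fell at both passages, with -2.78 ± 0.30, adjusted p = 2.6e-07 and -2.71 ± 0.29, adjusted p = 5.8e-07. Pkdcc, a secreted tyrosine kinase of the skeleton, read 26.8, 31.2 and 17.2 CPM in Serum/LIF and 0.515, 0.699 and 0.734 CPM in EMM at P10, and 16.9, 15.8 and 15.6 CPM and 4.35, 2.94 and 4.60 CPM at P20. Its log2 fold change was -5.33 ± 0.31, adjusted p = 3.2e-11 at P10 and -2.03 ± 0.23, adjusted p = 7.7e-07 at P20. Dlk1, an imprinted Notch-like membrane protein, fell at both passages with -2.04 ± 0.28, adjusted p = 5.3e-06 and -1.15 ± 0.25, adjusted p = 0.0011. Fgf17, a ligand of the FGF family, and Gpc3, a cell-surface proteoglycan, were chosen for mention after their values were seen. Fgf17 fell at both passages (-2.38 ± 0.19, adjusted p = 3.9e-09 and -1.72 ± 0.17, adjusted p = 2e-07), and Gpc3 fell at P10 (-2.28 ± 0.19, adjusted p = 3.2e-08) and gave -0.28 ± 0.18, adjusted p = 0.22 at P20. The adhesion receptor gene Adgrd1 lay at the fold limit above Serum/LIF at P10 (1.00 ± 0.29, adjusted p = 0.0071).

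Of 15 members known from neurons, 11 were lower in EMM at P10, against 10.5% of all genes, and 1 at P20, near the 6.31% of all genes. The change of the EMM effect between passages passed in 6 of the 15, all toward a higher value at P20, where 5.17% of all genes changed that way and 3.4% toward a lower value. The axonal adhesion gene Nfasc and the synaptotagmin gene Syt11, both chosen for mention after their values were seen, gave -3.03 ± 0.21, adjusted p = 2.9e-10 and -2.75 ± 0.17, adjusted p = 7.6e-11 at P10 and -0.31 ± 0.17, adjusted p = 0.16 and -0.53 ± 0.15, adjusted p = 0.008 at P20. The septin gene Sept3 went from -1.58 ± 0.15, adjusted p = 4.6e-08 at P10 to 0.50 ± 0.14, adjusted p = 0.0076 at P20. For Syt11 the P20 adjusted p rose above 0.01 whichever P20 EMM or Serum/LIF library was left out. For Sept3 it did so without EMM library 2 or 3 or Serum/LIF library 1 or 2 of P20. Scaling by library totals, or asking for 10 counts in every library, had the same result for Sept3. Of 8 muscle and matrix genes, 5 were lower at P10, against 10.5%, and 1 at P20, against 6.31%. Spon1 had no read in any P10 EMM library and 131 reads over the Serum/LIF libraries, which puts it at least 9.88-fold lower against a floor of 3 reads a library. Vwa2, a basement membrane protein, gave -3.67 ± 0.32, adjusted p = 9.9e-09 at P10 and -0.03 ± 0.25, adjusted p = 0.98 at P20.

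Markers of other cell types moved beside these groups. The CPM summed over 9 fibroblast markers, none of them absent from the passage libraries, ran from 152 to 179 in Serum/LIF, 26.1 to 30.3 in EMM and 3.44 to 6.04 in 2i/LIF at P10. At P20 it ran from 235 to 464, 15.3 to 19.9 and 7.43 to 8.43. In the time course the same sum ran from 65.8 to 69.8 at 0 h and 48.1 to 56.8 at 24 h. The sum over 8 neural markers ran from 317 to 354 in Serum/LIF, 402 to 443 in EMM and 154 to 259 in 2i/LIF at P10, and from 316 to 353, 327 to 360 and 228 to 260 at P20. Of the 6 neural markers tested, 1 was higher and 0 lower in EMM at P10, with a median log2 fold change of -0.16. Over 7 trophoblast markers it ran from 23.6 to 27.7 in Serum/LIF and 4.99 to 7.42 in EMM at P10, and from 16.8 to 35.04 and 3.72 to 5.13 at P20. Over 9 blood and endothelial markers it ran from 42.8 to 54.3 and 84.0 to 91.2 at P10, and from 66.2 to 83.1 and 102 to 105 at P20, with Hbb-bt and Tyrobp under 0.1 CPM in every library. Over 9 primitive endoderm markers it ran from 11.8 to 15.6 and 7.19 to 8.45 at P10, and from 16.6 to 24.9 and 18.7 to 28.8 at P20, with Ttr under 0.1 CPM in every library. Fibroblast and trophoblast sums were thus lower in EMM at both passages with no overlap, and the blood and endothelial sum was higher. That last sum includes Pecam1, which is also in the naive pluripotency list, so it does not mark other cell types alone. For Pecam1 the log2 fold change of EMM against Serum/LIF was 0.85 at P10 and 0.50 at P20. In the time course the trophoblast sum was 10.3 to 11.5 at 0 h and 17.5 to 17.8 at 24 h, opposite to its passage difference, and the primitive endoderm sum 14.8 to 16.0 and 25.2 to 26.0. The blood and endothelial sum (49.2 to 51.3 and 48.9 to 50.9) and the neural sum (277 to 297 and 275 to 294) overlapped between 0 h and 24 h. The 8 ESC markers were all detected, with a sum of 4594 to 4933 in Serum/LIF and 5628 to 7709 in EMM at P10, and of 4811 to 5258 and 4348 to 4490 at P20, so EMM was above Serum/LIF at P10 and below it at P20. In the time course it was 5792 to 5899 at 0 h and 5487 to 5717 at 24 h. The part of other cell types in the member differences was not tested.

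Transcription and chromatin factors number 5, of which 2 were lower at P10 and none at P20. Fubp1, which binds single-stranded DNA upstream of Myc, read 324, 329 and 343 CPM in Serum/LIF and 157, 138 and 136 CPM in EMM at P10 (-1.20 ± 0.09, adjusted p = 1.6e-09), and gave -0.72 ± 0.09, adjusted p = 3.2e-06 at P20. Pax8 and Tal1, regulators of kidney and blood lineages, did not pass at P10 (-0.44 ± 0.46, adjusted p = 0.46 and -1.03 ± 0.42, adjusted p = 0.048). The other 40 members had no role assigned, and 22 of the 39 tested were lower at P10 and 9 at P20. They hold the deep P10 differences of Padi3 and of Prom2, a membrane protein of epithelial protrusions. Padi3 had 4 reads in the EMM libraries and 169 in Serum/LIF, a ratio of 33.7 (95% interval 12.9 to 125), and Prom2 had 4 and 140, a ratio of 27.9 (10.7 to 104).

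The EMM effect at P20 minus that at P10, tested as an interaction over both passages, was higher by the same limits in 34 members, against 5.17% of all genes, and lower in 8, against 3.4%, with a median of 0.82 over the members. Without Serum/LIF library 3 of P20 the 8 became 4. Of the 36 genes lower at both passages, 8 had a smaller effect at P20 (0.554% of all genes did both), which is 22.2% of the 36 where the share of all genes lower at both passages was 15.5%. They were Psat1, Ccnd1, H2-K1, Pkdcc, Lhpp, the apelin ligand gene Apln, Tdrkh and Padi3. Within EMM, 42 members were higher at P20 than at P10 and 4 lower, against 5.63% and 2.95%, and within Serum/LIF 6 were higher and 7 lower, against 1.19% and 0.679%. The 4 became 2 without EMM library 2 of P20. The 7 became 4 without Serum/LIF library 2 of P10, and 3, 2 and 3 without Serum/LIF libraries 1, 2 and 3 of P20. More members were called between passages in EMM than in Serum/LIF, as were more of all genes.

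The 8 members with a lower EMM effect at P20 than at P10 were Tex19.1, D1Pas1, Stk31, Tuba3a, Adgrd1, Cd74 and the predicted genes Gm11839 and Gm11841. Tex19.1, a germline gene that restrains transposons and was chosen for mention after its values were seen, gave -0.59 ± 0.14, adjusted p = 0.0011 at P10 and fell at P20 (-1.70 ± 0.13, adjusted p = 8.6e-09). It read 59.4, 53.1 and 73.5 CPM in Serum/LIF, 17.8, 21.5 and 17.8 CPM in EMM and 84.2, 65.1 and 67.2 CPM in 2i/LIF at P20. D1Pas1, a retrocopy of the RNA helicase gene Ddx3x that shares its sequence, was 1 of the 2 members higher in EMM at P10 (1.13 ± 0.13, adjusted p = 6.9e-07), with Gm11839 (1.48 ± 0.18, adjusted p = 9.2e-07). Neither passed at P20, with 0.10 ± 0.13, adjusted p = 0.59 and -0.06 ± 0.17, adjusted p = 0.82.

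In 2i/LIF, the medium that shares the Serum/LIF controls with EMM at each passage, 93 members were lower and 7 higher than in Serum/LIF at P10, against 14.7% and 11.6% of genes, and 77 and 9 at P20, against 15.5% and 6.73%. The medians were -1.72 and -1.26. The 2 media differ in the member list when compared directly. EMM was lower than 2i/LIF in 26 members and higher in 42 at P10, against 11% and 11.1% of genes, and lower in 23 and higher in 52 at P20, against 9.34% and 16.0%. The median was 0.57 at P10 and 0.69 at P20, and the P20 median became -0.10 over only the 56 members whose counts reached 10 in each library. At both passages 13 members were lower in EMM than in 2i/LIF, against 4.96% of all genes, and 27 were higher, against 7.38%.

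**Figure D4:**
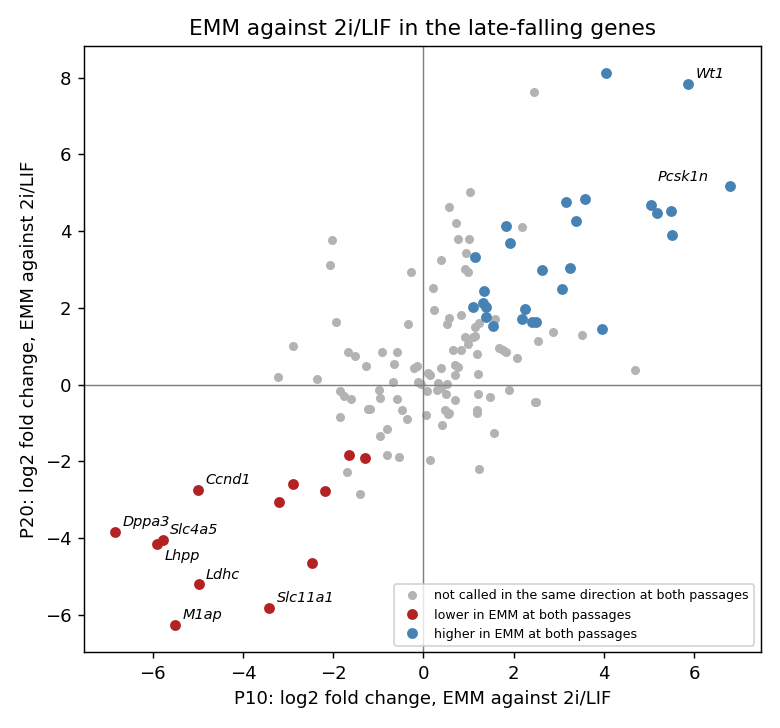
Log2 fold change of EMM against 2i/LIF at P10 (horizontal axis) and P20 (vertical axis) for the 139 members tested. The 13 genes called lower in EMM at both passages (red) include Dppa3, Ccnd1, Lhpp, Slc4a5 and M1ap, and the 27 called higher at both (blue) include Pcsk1n and Wt1; fitted values of genes with no reads in a group, such as Wt1 in 2i/LIF, depend on the prior count.

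In all, 10 members were lower in EMM than in both other media at both passages, against 0.922% of all genes: Ccnd1, Dppa3, Bcap29, Slc11a1, Lhpp, Slc4a5, Tuba3a, Padi3, Cd302 and Ldhc. Lhpp, a phosphohistidine and pyrophosphate phosphatase, read 12.5, 9.41 and 8.30 CPM in Serum/LIF, 1.39, 0.899 and 0.294 CPM in EMM and 69.8, 63.8 and 51.5 CPM in 2i/LIF at P10, and 8.08, 6.55 and 8.18 CPM, 2.74, 2.51 and 2.79 CPM and 53.001, 49.6 and 39.8 CPM at P20. The media kept the order 2i/LIF, Serum/LIF, EMM at both passages with no overlap. EMM against Serum/LIF gave -3.30 ± 0.27, adjusted p = 4.9e-09 and -1.50 ± 0.21, adjusted p = 1.4e-05, and 2i/LIF against Serum/LIF 2.61 ± 0.18, adjusted p = 1.5e-10 and 2.65 ± 0.18, adjusted p = 2.4e-10. Slc4a5, a sodium bicarbonate cotransporter, read 12.1, 13.0 and 9.86 CPM, 2.58, 0.999 and 1.32 CPM and 99.0, 96.9 and 109 CPM in Serum/LIF, EMM and 2i/LIF at P10 and held the same order. M1ap, a meiosis gene, read 2.72, 3.18 and 2.67 CPM, 1.34, 1.20 and 2.35 CPM and 70.9, 63.8 and 71.7 CPM at P10, and its EMM difference passed at P20 alone (-1.90 ± 0.21, adjusted p = 5.4e-07).

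Lhpp, Slc4a5, Tuba3a and M1ap were the 4 members higher in 2i/LIF than in Serum/LIF at both passages, against 4.64% of all genes, and all of them but Lhpp lie on chromosome 6. M1ap (chr6:82946902-83030309, mm10) and Slc4a5 (chr6:83219828-83304945) are near neighbours there. Chromosome 6 holds 14 members, 10.0% of them, and 4.68% of expressed genes. At P20 chromosomes 6 and 8 stood apart from the other autosomes in 2i/LIF against Serum/LIF: the median log2 fold change over all their genes was 0.33 and 0.45, where the other autosomes lay between -0.18 and 0.08. At P10 the medians of chromosomes 6 and 8 were 0.11 and 0.01, inside the range of the other autosomes (-0.18 to 0.14). Of the 7 members higher in 2i/LIF at P10, 4 lie on chromosome 6 (Vwf, Slc4a5, Tuba3a and M1ap). The part of the P20 chromosome-wide shifts in the member differences was not tested.

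Of the members higher in EMM than in 2i/LIF, Pcsk1n, an inhibitor of a prohormone convertase, had the widest fitted difference at P10 among those with reads in both media. It read 25.8, 25.6 and 17.1 CPM in Serum/LIF, 19.108, 21.6 and 29.9 CPM in EMM and 0.402, 0.0931 and 0.157 CPM in 2i/LIF at P10, and 30.0, 20.8 and 18.7 CPM, 26.2, 30.4 and 29.5 CPM and 1.51, 0.568 and 0.737 CPM at P20. EMM and Serum/LIF overlapped at P10 and were not called at either passage (0.02 ± 0.21, adjusted p = 0.94 and 0.31 ± 0.20, adjusted p = 0.24), and 2i/LIF was far below both (6.79 ± 0.39, adjusted p = 5.3e-11 for EMM against 2i/LIF at P10). Wt1, the Wilms tumour transcription factor gene, had no read in any 2i/LIF library and 123 reads in the P20 EMM libraries, at least 7.02-fold higher against the floor of 3 reads a library. Of the neuronal members, 14 of 15 were lower in 2i/LIF than in Serum/LIF at P10 and 14 at P20, against 14.7% and 15.5% of all genes.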

How the data were processed

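RNA-seq libraries of the E14tg2a mouse ESC line were measured in 10 groups of 3. The authors aligned reads with STAR to mm10, and the submitters' notes also list featureCounts, Salmon and DESeq2. The time-course table holds read counts per gene as deposited by the authors, and the passage table holds estimated counts as deposited, of which 9.98% were not whole and were rounded. The strand setting of the counting is not given in the sources used here. All sample columns were used (columns left out: 0). The members, gene lists and roles were chosen with earlier results of these data known, and the roles, Bcap29, Apln, Cd302 and the genes so marked in the text were picked after values were seen. Genes were named by list membership, level at 0 h, size of the 24 h difference, of the passage fold changes and of their change between passages, or nearness to a limit.

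The passage libraries were fitted together with edgeR 4.0.16 (R 4.3.3): filterByExpr, TMM, glmQLFit and glmQLFTest on 1 term per group, with no replicate block, and Benjamini-Hochberg adjustment over all genes of each of 9 contrasts. The time course was fitted the same way. Of that fit only the fixed lists, the shares of all genes and the counts of genes below 0 h are reported, since its libraries chose the members. Errors are SE of log2 fold changes from the fit. As all libraries come from 1 cell line, p-values measure the spread between its cultures. Ratios of low counts have exact Clopper-Pearson 95% intervals that cover counting error only, and a count of 0 was set against a floor of 3 reads. The fit was also run on simulated counts with known changes, and the outcome is not given here. Alternatives were DESeq2 1.42.0, other scalings, filters, thresholds and pseudocounts, a replicate block, and leaving out each library. No pair of libraries agreed within counting noise.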

Additional observations from a re-analysis of the deposited data

Results flagged for a closer look

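The values here are changes in the EMM effect, the log2 fold change of EMM against Serum/LIF at P20 minus that at P10, for members the report names, each past an adjusted p of 0.01 in edgeR's quasi-likelihood test of the difference itself. Over all members, 34 were higher and 8 lower past a log2 change of 1.

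Among the members with a higher EMM effect at P20, the change was 1.25 for Psat1, 2.41 for Ccnd1, 0.66 for Pclaf, 0.48 for Fubp1 and 1.46 for H2-K1. It was 2.00 for Gpc3, 3.30 for Pkdcc and 2.55 for Epha8, a receptor tyrosine kinase gene. The neuronal genes gave 2.22 for Syt11, 2.07 for Sept3 and 2.72 for Nfasc. The piRNA factors gave 1.65 for Tdrkh and 2.56 for Tdrd1. Among the rest, the change was 1.80 for Lhpp, 3.64 for Vwa2, 3.79 for Prom2, 3.89 for Rbbp8nl, 4.30 for Fam131b and 2.90 for Padi3. The fitted change of Spon1 was 10.20, which depends on the prior count because Spon1 had no reads in P10 EMM.

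Among the members with a lower EMM effect at P20, it was -1.10 for Tex19.1, -1.03 for D1Pas1, -1.65 for Stk31, -1.11 for Tuba3a, -1.79 for Adgrd1, -1.54 for Gm11839 and -2.03 for Cd74. Stk31 and Tuba3a lie on chromosome 6. The causes of these changes were not tested.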

How the results depend on the processing

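Low counts limit most of these results: with 67 members under 5 CPM at 0 h, only 56 had at least 10 counts in each passage library. Over these 56, 28 members were lower and 2 higher in EMM than in Serum/LIF at P10, against 6.05% and 5.34% of the 11166 genes that passed the same filter, and 19 and 0 at P20, against 2.95% and 2.45%. For 2i/LIF against Serum/LIF they numbered 33 and 3 at P10 (8.85% and 8.69% of genes) and 19 and 3 at P20 (8.04% and 5.02%), and for EMM against 2i/LIF 10 and 12 at P10 (8.13% and 7.34%) and 13 and 9 at P20 (7.22% and 9.69%), where the median became -0.0992. The EMM effect was higher at P20 in 11 (3.97%) and lower in 6 (3.51%). EMM at P20 against P10 gave 2 lower and 8 higher (2.52% and 3.12%), and Serum/LIF at P20 against P10 gave 0 and 3 (0.304% and 0.86%). Fewer members were tested under this filter, which accounts for part of each drop. With no fold limit, 4 members were higher in EMM at P10 and 2 at P20, against 18.7% and 13.7% of all genes, 9 were lower in EMM at P20 than at P10, against 11.9%, and 16 were lower in Serum/LIF at P20 than at P10, against 2.98%. At an adjusted p of 0.05, 2 were higher in EMM at P20, against 4.19%. With the members on chromosomes 6 and 8 left out, 3 of the 7 higher in 2i/LIF at P10 remained, since the other 4 lie on chromosome 6. Fitting only the groups compared tested 97 members in EMM against 2i/LIF at P10, of which 23 were higher, against 10.3% of the 13558 genes tested in that fit. The selection rule took 65 genes with a pseudocount of 2 and 73 with a minimum of 5 CPM, 159 with TMM scaling, and 130 to 147 when 1 library was left out.

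Leaving out each library in turn gave 2 to 4 members higher in EMM at P10, 4 to 8 with a lower EMM effect at P20, 2 to 4 lower in EMM at P20 than P10, and 2 to 5 lower in Serum/LIF at P20 than P10. The shares of all genes in these fits were 5.9% to 6.29%, 2.76% to 3.17%, 2.34% to 3% and 0.443% to 0.618%. The members lower in EMM numbered 82 to 87 at P10, against 9.13% to 9.71%, and 38 to 42 at P20, against 4.92% to 5.62%. A few uncalled values near 0 changed sign: Cd74 at P10 (-0.0179 with library totals, -0.0604 to 0.2772 leaving out libraries), Pcsk1n at P10 (-0.0102 with DESeq2 size factors, -0.0818 with totals, -0.0569 with no filter, -0.0037 with only those groups, -0.1601 to 0.1627), Slc47a1 at P10 (-0.0562 with totals, -0.0286 with no filter, -0.0327 with 10 counts, -0.1457 to 0.1768), Fam131b at P20 (-0.0663 with totals, -0.0002 with DESeq2, -0.2848 to 0.3428) and Vwa2 at P20 (-0.0971 to 0.074). The causes were not tested.

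The replicate numbers did not pair the passage libraries: deviations of libraries with the same number correlated from -0.31 to 0.13. With a replicate block 88 members were lower and 2 higher in EMM at P10 (10.4% and 6.6% of all genes), and 42 and 1 at P20 (6.16% and 3.44%), and the change between passages was called higher in 34 and lower in 8 (5% and 3.39%). Under the block, the P20 differences of Phgdh and Psmb10 and the P10 difference of Adgrd1 no longer passed an adjusted p of 0.01.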
